A study of Mus musculus with 4 samples.

Results

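The genes described here are Azin1, Blcap, Copa, Cyfip2, Igfbp7, Tmem63b, Cog3 and Cdk13, which were taken by name because their coding sequences are known to be recoded by RNA editing in more than one mammal. They are 8 of the 24421 genes of the count tables. In the table of A-to-G changes, 1201 of 1205261 listed sites carry one of these names, and 81 of the 24200 sites that passed the study's criteria in at least 1 library do. The editing rate of a site is the share of its reads with the altered base, and a site passed in a library when it had 5 reads or more, 3 of them altered, and a rate between 5% and 95%. The cells were cultured lung endothelial cells (ECs) of 2 male C57/BL6 mice aged 2 weeks, from separate litters, that the labels give as an inducible EC-specific ADAR1 knockout (i-KO in the study), with exons 12 to 15 of the ADAR1 gene floxed. The cells of each mouse were divided into a culture given hydroxytamoxifen (TM), which switches the Cre recombinase on, and an untreated culture (CON) that carries the same floxed alleles and Cre. Each culture gave 1 RNA library, the CON and TM libraries of mouse EC1 and those of mouse EC2, which makes 2 libraries in a group, paired by mouse. Where 4 values stand in a row, they are those of CON and TM of EC1 and then CON and TM of EC2. None of the 4 libraries came from TM-treated cells without the floxed alleles, so in these libraries the agent and the deletion cannot be told apart.

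In A-to-I editing, an ADAR enzyme deaminates adenosine in double-stranded RNA to inosine, which ribosomes and sequencers both read as guanosine. Most editing falls in paired repeats of introns and UTRs, but in a small set of transcripts a short hairpin, often formed with the next intron, places a single coding adenosine in reach of the enzyme, and the codon then gives another amino acid. ADAR1 and ADAR2 share such sites to different degrees from one transcript to the next. The comparison of TM with CON asks how far the rate at each such site differed between the treated and the untreated cultures.

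The targeted gene was read first. At the sites listed in exons 2 to 11 of Adar, upstream of the floxed part, the median depth was 152.5 and 664 reads in CON and TM of EC1 (14 and 44 sites), and 175 and 967 in EC2 (18 and 50 sites). These depths are not scaled to the library totals, and the listed sites differ between libraries. In exons 12 to 14 the median was 145 reads in EC1 CON (3 sites), and in EC2 it was 169 in CON (1 site) against 65.5 in TM (2 sites), while EC1 TM listed no site there. Exons 12 to 14 thus had about the depth of the upstream exons in CON and far less than them in EC2 TM. For Adarb1, the gene of ADAR2, the median depth at exonic sites that both libraries of a mouse list was 227 and 112 reads in CON and TM of EC1 (2 sites), and 211 and 131.5 in EC2 (6 sites). Scaled to the library totals, the log2 ratio of TM to CON for Adarb1 was -1.01 in EC1 and -1.20 in EC2, so that depth at both enzyme genes differed between the cultures. The gene count of Adarb1 was 24, 13, 27 and 21, and TM did not differ past the threshold in edgeR's quasi-likelihood test (log2 fold change -0.95, adjusted p = 0.267). For Adar the count was 9, 47, 16 and 71, and the same test called it higher in TM (log2 fold change 1.87, adjusted p = 0.00609). Over all tested genes, 4.39% were called higher. The part of ADAR2 in the rates below was not tested.

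Of the 81 passing sites of these genes, 16 lay in coding sequence, of which 14 change an amino acid and 2 are synonymous. They fell in Cdk13 (6), Cog3 (3), Blcap (2), Copa (2), Igfbp7 (2) and Tmem63b (1), while Azin1 and Cyfip2 had listed coding sites but none that passed. The windows below are 29 bases of spliced transcript (GENCODE vM21, GRCm38/mm10), written 5′ to 3′ on the coding strand with edited adenosines in capitals, and they are shown because each holds a codon whose rate is described below.
Blcap Y2C and Q5R, chr2:157558131-157558159, minus strand: gagatcatgtAttgcctccAgtggctgct
Blcap K15R, chr2:157558096-157558124, minus strand: cctcctcatccccaAgcccctcaaccccg
Cdk13 K96R, chr13:17804351-17804379, minus strand: gctggcgagaggcaAgaggcgccccggag
Cdk13 Q103R, chr13:17804330-17804358, minus strand: ccccggagggcggcAgaagcggcgccgcg
Cog3 K633R, E634 and I635V, chr14:75719708-75719736, minus strand: aattcaccattaAggaAAtttccctggac
Copa I164V, across a splice junction, plus strand: tccgcgtttgggatAtttctggtctaagg
Igfbp7 R78G, chr5:77407769-77407797, minus strand: gcggcgcggccggcAgggggcactgcgcg
Igfbp7 K95R, chr5:77407717-77407745, minus strand: ccgcaagaggcggaAgggtaaagccgggg
Tmem63b Q619R, chr17:45662935-45662963, minus strand: ggcctacgagttccAgtttggcgcagcct
Azin1 S367G, chr15:38491598-38491626, minus strand: atcaaattgtggaaAgctgtcttcttcct
Cyfip2 K320E, chr11:46272629-46272657, minus strand: tggccagatacattAagaccagtgctcac

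Protein changes are numbered from the first methionine, with the genomic residue first. The base before the adenosine was G at 0 of the 16 passing coding sites, against 28.6% of the 5009 coding adenosines of the 8 transcripts, and the base after it was G at 10 of the 16 (62.5%), against 30.3%. A scarce G before and a frequent G after the adenosine are the neighbours known to favour ADAR enzymes. Among the 14 protein-changing sites the base after was G at 10 (71.4%).

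Fisher's exact test on the reads of the CON and TM library of a mouse, with Benjamini-Hochberg adjustment over all sites tested in that mouse, called 1 of 56 tested sites of these genes lower in TM in EC1 and 2 of 55 in EC2, and none higher in either. Copa held 43 of the 56 sites and 46 of the 55. At an unadjusted p under 0.05, 4 of the 56 sites were lower and 1 was higher in EC1, and 5 of the 55 lower and 1 higher in EC2. The lower sites made up 7.14% and 9.09% of those tested in these genes, against 5.21% and 8.48% of those tested over all genes, and the higher ones 1.79% and 1.82%, against 1.52% and 1.31%. Over all genes 0.898% of the tested sites were called lower and 0.0612% higher in EC1, and 2.37% and 0.0865% in EC2. This test compares the reads of 2 libraries, and a difference is one between those libraries. An exact Mantel-Haenszel test over both mice keeps the reads of each mouse apart. This test also counts reads, and variation between mice does not enter it. It called 4 of the 11 passing coding sites listed in all 4 libraries, all lower in TM, against 5.02% of the sites of all genes. Of the exon rows of all genes it called 7.13%, in either direction. The called sites were Y2C and Q5R of Blcap, Q103R of Cdk13 and I635V of Cog3, and none of the 38 non-coding sites of these genes in that test was called. Nearly all of those 38 lay in Copa, most at far fewer reads than the Blcap sites. The coding and non-coding counts are thus not a like comparison. Of the same 11 coding sites, 8 had a lower rate in TM in both mice and 0 a higher one. Over all passing sites with 5 or more reads in all 4 libraries, 35.3% were lower and 17.0% higher in both. The 11 sites lie in Blcap, Cdk13, Cog3 and Copa alone, and some are 1 to 21 bases apart. The same reads can cover such neighbours, so the 11 are not independent. With 2 mice, an exact sign permutation test cannot go below p = 0.5, so means over mice are given with their SD and without such a test.

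**Figure D1:**
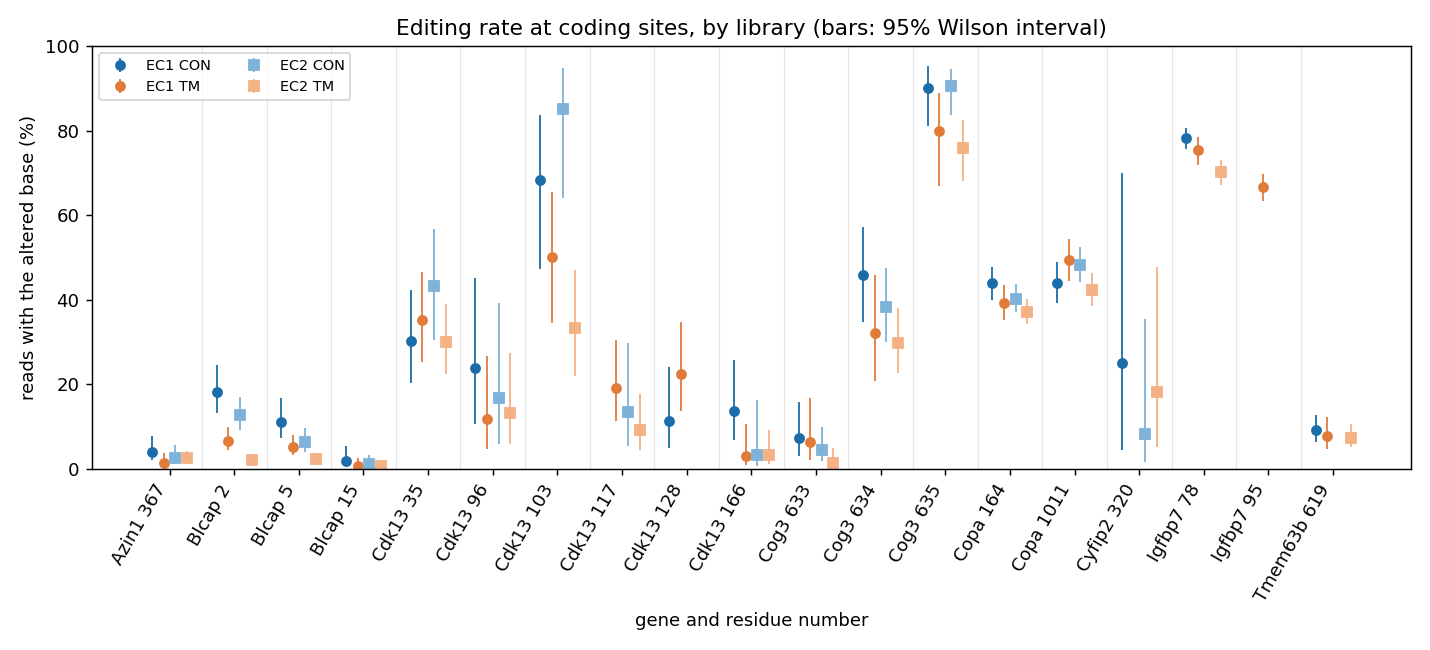
Percent of reads with the altered base (y axis) at each coding site, named by gene and residue number (x axis), in the 4 libraries, with 95% Wilson intervals as bars; a library that does not list the site has no point. Rates run from 0.690% at Blcap 15 in EC1 TM to 90.4% at Cog3 635 in EC2 CON, and the CON points lie above the TM points of the same mouse at Blcap 2 and 5, Cdk13 103 and Cog3 635.

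Blcap codes for a membrane protein of 87 residues, named for its loss in bladder cancer, whose editing sites lie just after the start codon in exon 2. At tyrosine 2 (chr2:157558149), 33 of 181 reads were altered in EC1 CON, 22 of 333 in EC1 TM, 35 of 277 in EC2 CON and 13 of 625 in EC2 TM. The rates were 18.2% (95% Wilson interval 13.3 to 24.5), 6.61% (4.40 to 9.80), 12.6% (9.23 to 17.1) and 2.08% (1.22 to 3.53). The rate was lower in TM in both mice, as at 35.3% of all passing sites with 5 or more reads in all 4 libraries. TM minus CON was -11.1 ± 0.757 percentage points (mean ± SD of the 2 mice), and the difference passed Fisher's exact test in EC1 (adjusted p = 0.0127) and in EC2 (adjusted p = 2.21e-07). Relative to CON, 0.362 of the rate remained in EC1 and 0.165 in EC2.

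At glutamine 5 of Blcap (chr2:157558140), 9 bases further on, 20 of 179 reads were altered in EC1 CON, 17 of 335 in EC1 TM, 18 of 288 in EC2 CON and 14 of 628 in EC2 TM. The rate was 11.2% and 6.25% in CON and 5.07% and 2.23% in TM, in the order EC1, EC2, and so was again lower in TM in both mice. Neither mouse passed alone in Fisher's exact test (adjusted p = 0.492 in EC1 and 0.104 in EC2), while both together did in the exact Mantel-Haenszel test (adjusted p = 0.00601). Lysine 15 of Blcap, another known recoding site, was altered in 3 of 161, 2 of 290, 3 of 263 and 4 of 564 reads. No library passed the 5% limit at this residue, which, with Azin1 S367G and Cyfip2 K320E, was chosen for description after its values were seen. The rate was thus highest at tyrosine 2 and lowest at lysine 15 in 3 of the 4 libraries, though the intervals of tyrosine 2 and glutamine 5 overlapped in EC1 CON (7.35 to 16.6 at glutamine 5), and in EC2 TM these sites were at 2.08% and 2.23%.

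Cdk13 codes for a kinase that works with cyclin K and phosphorylates the C-terminal domain of RNA polymerase II. All 6 passing coding sites lay in its exon 1, in the part that codes for the N-terminal region before the kinase domain, and each changes an amino acid. At Q103R (chr13:17804344) 15 of 22 reads were altered in EC1 CON, 18 of 36 in EC1 TM, 17 of 20 in EC2 CON and 17 of 51 in EC2 TM. The rates were 68.2% (47.3 to 83.6) and 85.0% (64.0 to 94.8) in CON and 50.0% (34.5 to 65.5) and 33.3% (22.0 to 47.0) in TM, with wide intervals because of the low depth. The difference was -18.2 points in EC1 and -51.7 in EC2, and passed Fisher's exact test in EC2 (adjusted p = 0.00905) but not in EC1 (adjusted p = 1), with an adjusted p of 0.00822 in the exact Mantel-Haenszel test over both. No difference in size between the mice was tested. This was the Cdk13 site with the highest rate in every library.

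The neighbouring K96R of Cdk13 (chr13:17804365), 21 bases upstream, was altered in 5 of 21, 4 of 34, 3 of 18 and 5 of 38 reads. Its rates of 23.8%, 11.8%, 16.7% and 13.2% were lower in TM in both mice, but at this depth the intervals overlapped (10.6 to 45.1 in EC1 CON and 4.67 to 26.6 in EC1 TM) and the adjusted p was 1 in both Fisher's exact tests. Q35R (chr13:17804548) was altered in 19 of 63, 26 of 74, 22 of 51 and 34 of 113 reads, and moved in opposite directions in the mice, by 4.98 points in EC1 and -13.0 in EC2. At T166A (chr13:17804156) the altered reads were 7 of 51, 2 of 65, 1 of 31 and 3 of 93, so that only EC1 CON passed. K117R (chr13:17804302) was altered in 12 of 63 reads in EC1 TM, 4 of 30 in EC2 CON and 7 of 77 in EC2 TM, and EC1 CON did not list it. Q128R (chr13:17804269) was listed in EC1 alone, at 5 of 44 reads in CON and 13 of 58 in TM. These last 2 sites were not comparable over both mice, since the depth of a library that does not list a site is unknown.

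Cog3 codes for a subunit of the conserved oligomeric Golgi (COG) complex, which tethers vesicles that return to and move within the Golgi. Its 3 passing sites lie within 6 bases of exon 17, at neighbouring codons, as the Cog3 window above shows. Isoleucine 635 (chr14:75719719), changed to valine, was altered in 64 of 71 reads in EC1 CON, 40 of 50 in EC1 TM, 104 of 115 in EC2 CON and 101 of 133 in EC2 TM. The rates were 90.1% (81.0 to 95.1) and 90.4% (83.7 to 94.6) in CON and 80.0% (67.0 to 88.8) and 75.9% (68.0 to 82.4) in TM, so the site remained mostly edited in TM. TM minus CON was -12.3 ± 3.08 points (mean ± SD, 2 mice). Neither mouse passed alone in Fisher's exact test (adjusted p = 1 and 0.116), but both together did in the exact Mantel-Haenszel test (adjusted p = 0.0232).

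The adenosine directly before it in Cog3, at the third position of the glutamic acid 634 codon (chr14:75719720), gives the same amino acid when edited. It was altered in 33 of 72, 16 of 50, 44 of 115 and 40 of 134 reads, or 45.8%, 32.0%, 38.3% and 29.9%. TM minus CON was -11.1 ± 3.83 points, and the exact Mantel-Haenszel test gave an unadjusted p of 0.0495 and an adjusted p of 0.372. The share of reads that carry both changes cannot be read from counts per base. K633R (chr14:75719724) was altered in 5 of 69, 3 of 48, 5 of 115 and 2 of 141 reads, at most 7.25% in a library, with an adjusted p of 0.806 in the exact Mantel-Haenszel test.

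Copa codes for the alpha subunit of coatomer (COPI), the coat of vesicles that return from the Golgi to the endoplasmic reticulum. Isoleucine 164 (chr1:172092348, exon 6), changed to valine, was altered in 267 of 609 reads in EC1 CON, 206 of 524 in EC1 TM, 333 of 827 in EC2 CON and 367 of 988 in EC2 TM. The rates were 43.8% (40.0 to 47.8), 39.3% (35.2 to 43.6), 40.3% (37.0 to 43.6) and 37.1% (34.2 to 40.2). TM minus CON was -4.53 points in EC1 and -3.12 in EC2, or -3.82 ± 0.996 in the mean, at 524 to 988 reads per library, and the difference did not pass adjustment in Fisher's exact test (adjusted p = 0.949 and 0.822) or in the exact Mantel-Haenszel test (unadjusted p = 0.0453, adjusted p = 0.353). I164V kept 0.897 of its CON rate in EC1 TM and 0.923 in EC2 TM. The synonymous site at glutamine 1011 (chr1:172119259, exon 29) was altered in 174 of 396, 191 of 386, 255 of 528 and 263 of 622 reads, with a TM minus CON difference of 5.54 points in EC1 and -6.01 in EC2.

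Copa differed from the other genes in its non-coding sites. It held 62 of the 65 passing sites outside coding sequence (the other 3 lay in B3 repeats of Cdk13 introns), 52 of them in introns, 8 beyond its 3′ end, 1 in the 5′ UTR and 1 just downstream. At the 18 non-coding Copa sites that passed in all 4 libraries at a depth of at least 10, the median rate was 44.9% and 43.5% in CON and TM of EC1 and 47.1% and 46.2% in those of EC2, and 12 of them were lower in TM in EC1 and 9 in EC2. The deepest of all passing non-coding sites, in the 5′ UTR (chr1:172082890), was altered in 533 of 1085 reads in EC1 CON, 522 of 1026 in EC1 TM and 647 of 1359 in EC2 CON, and EC2 TM did not list it. Its Wilson intervals of 46.2 to 52.1, 47.8 to 53.9 and 45.0 to 50.3 all hold 50%, the rate of a heterozygous base. Those of I164V lie below 50% in each library. Those of the synonymous site at glutamine 1011 do so in EC1 CON (39.1 to 48.9) and EC2 TM (38.5 to 46.2), but hold 50% in EC1 TM and EC2 CON. A rate below 50% thus does not set a site apart here. Reads of RNA alone cannot tell an inherited base from an edited one, so the Copa sites near that rate are reported as A-to-G changes only.

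**Figure D2:**
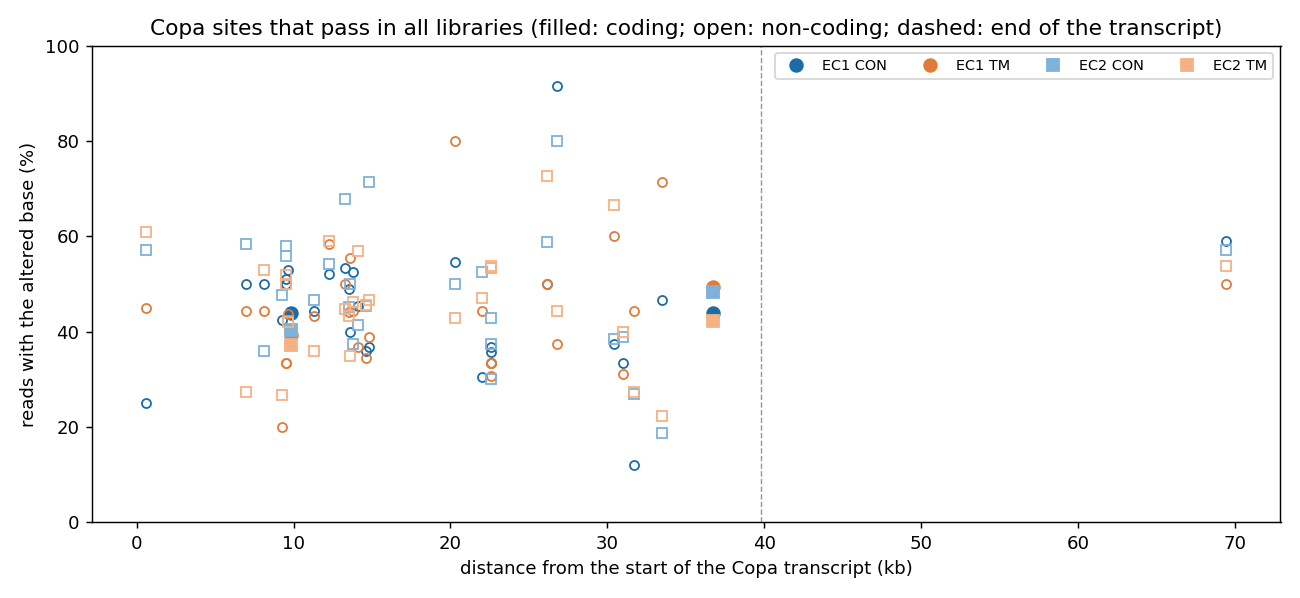
Percent of reads with the altered base (y axis) at the Copa sites that passed in all 4 libraries, against the distance from the start of the transcript in kb (x axis), with a dashed line at the transcript's end; colours and shapes mark the library, filled symbols the 2 coding sites and open symbols non-coding ones. The 18 non-coding sites with a depth of at least 10 have medians of 43.5% to 47.1% in the 4 libraries, and sites of lower depth spread more widely.

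Under the study's definition of a changed site, a rate difference of at least 5 percentage points with the depth and altered reads required in the higher library, 12 sites of these genes had CON above TM in both mice and 2 had TM above CON, against 7.35% and 3.92% of the passing sites of all genes. Of the 12, 4 were coding, in Blcap (Y2C), Cdk13 (Q103R) and Cog3 (I635V and the synonymous E634). The other 8, and both sites with TM above CON, were Copa introns at 2 to 52 reads per library where listed, and Fisher's exact test called none of them in a mouse where the depth let it be run. The deepest of the 8 were a site in a B1_Mur4 repeat at chr1:172092024, altered in 25 of 50, 14 of 42, 29 of 50 and 26 of 52 reads, and one in an RSINE1 repeat at chr1:172091813, altered in 14 of 33, 6 of 30, 20 of 42 and 8 of 30. The intervals of CON and TM overlapped in both mice at both sites. A site in a B2_Mm2 repeat at chr1:172109312 was altered in 11 of 12, 3 of 8, 4 of 5 and 8 of 18 reads. At chr1:172088238, in a B1_Mur4 repeat, the altered reads were 5 of 13, 1 of 7, 3 of 8 and 4 of 13, and at chr1:172089511, outside repeats, they were 4 of 8, 4 of 9, 7 of 12 and 3 of 11. The shallowest were chr1:172107176, in a simple repeat, at 7 of 10, 2 of 4, 3 of 7 and 1 of 4, and chr1:172111274, in an RSINE1 repeat, at 9 of 16, 1 of 2, 4 of 8 and 6 of 15. At chr1:172086828, in a B3A repeat, 6 of 11 reads were altered in EC1 CON, 7 of 10 in EC2 CON and 3 of 6 in EC2 TM, and EC1 TM did not list it, so its difference in EC1 rests on the deposited 0. The sites with TM above CON were chr1:172112451, at 2 of 9, 3 of 9, 2 of 7 and 5 of 7, and chr1:172112975, at 3 of 8, 3 of 5, 5 of 13 and 4 of 6.

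Igfbp7 codes for a secreted protein that binds insulin-like growth factors and is found around blood vessels. Both of its sites lie in exon 1, at arginine 78 and lysine 95. R78G (chr5:77407783) was altered in 821 of 1051 reads in EC1 CON, 475 of 631 in EC1 TM and 683 of 974 in EC2 TM, or 78.1% (75.5 to 80.5), 75.3% (71.8 to 78.5) and 70.1% (67.2 to 72.9). TM minus CON was -2.84 points in EC1, where both libraries list the site, with an adjusted p of 1 in Fisher's exact test. EC2 CON did not list it. K95R (chr5:77407731) was listed in EC1 TM alone, where 548 of 823 reads were altered, or 66.6% (63.3 to 69.7). The other Igfbp7 sites listed within 100 bases of K95R had median depths of 1442.5, 1770 and 1507 reads in EC1 CON, EC2 CON and EC2 TM, so that reads were present at neighbouring bases. The depth of these libraries at K95R itself is unknown, and why they do not list it was not tested. Taking the deposited 0 of an unlisted library as a rate would turn the difference at R78G over both mice into 33.6 points higher in TM.

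Tmem63b codes for a membrane channel that opens on stretch or osmotic change. Q619R (chr17:45662949, exon 20), known as its Q/R site, was altered in 28 of 308 reads in EC1 CON, 15 of 195 in EC1 TM and 26 of 354 in EC2 TM, and EC2 CON did not list it. The rates of 9.09% (6.36 to 12.8), 7.69% (4.72 to 12.3) and 7.34% (5.06 to 10.5) had overlapping intervals, and TM minus CON was -1.40 points in EC1 (adjusted p = 1, Fisher's exact test).

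Azin1 codes for antizyme inhibitor 1, which frees ornithine decarboxylase, the first enzyme of polyamine synthesis, from its inhibitor. Serine 367 (chr15:38491612, exon 11), changed to glycine, was altered in 8 of 199, 4 of 273, 6 of 227 and 12 of 489 reads, or 4.02% (2.05 to 7.73), 1.47% (0.571 to 3.71), 2.64% (1.22 to 5.65) and 2.45% (1.41 to 4.24). All lay under 5%, so the site passed nowhere and entered none of the adjusted tests. TM minus CON was -1.37 ± 1.67 points (SD, n = 2 mice), with an unadjusted p of 0.245 in the exact Mantel-Haenszel test. The adenosine before it, at chr15:38491613 in the glutamic acid 366 codon, was altered in 9 of 202 reads in EC1 CON and 2 of 226 in EC2 CON and was not listed in either TM library. Cyfip2, whose protein belongs to the WAVE complex that starts actin branching, had only 6 listed sites. At K320E (chr11:46272643, exon 10) 1 of 4 reads was altered in EC1 CON, 1 of 12 in EC2 CON and 2 of 11 in EC2 TM, too few to place the rate.

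In EC1 CON the protein-changing rates were ordered from Cog3 I635V (90.1%) and Igfbp7 R78G (78.1%) through Cdk13 Q103R (68.2%), Copa I164V (43.8%), Cdk13 Q35R (30.2%), Cdk13 K96R (23.8%) and Blcap Y2C (18.2%) to Cdk13 T166A (13.7%), Cdk13 Q128R (11.4%), Blcap Q5R (11.2%), Tmem63b Q619R (9.09%), Cog3 K633R (7.25%), Azin1 S367G (4.02%) and Blcap K15R (1.86%), leaving out Cyfip2 K320E with its 4 reads. Of neighbours in this order, only I635V and R78G had Wilson intervals that did not overlap. Among exon rows of these genes with at least 20 reads, 10.5%, 10.3%, 5.08% and 5.41% had a rate of 5% or more, against 1.89%, 1.77%, 1.71% and 1.43% of such rows over all genes. The genes were taken for their known recoded sites, so a higher share of such rows is built into the choice and is not a result. The median of these rows was 0.203% to 0.417% in the 8 genes, against 0.208% to 0.346% over all genes. Rows with 1 altered read made up 74.4%, 71.7%, 78.0% and 73.0% of them, against 83.8%, 82.8%, 83.8% and 83.2% over all genes.

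**Figure D3:**
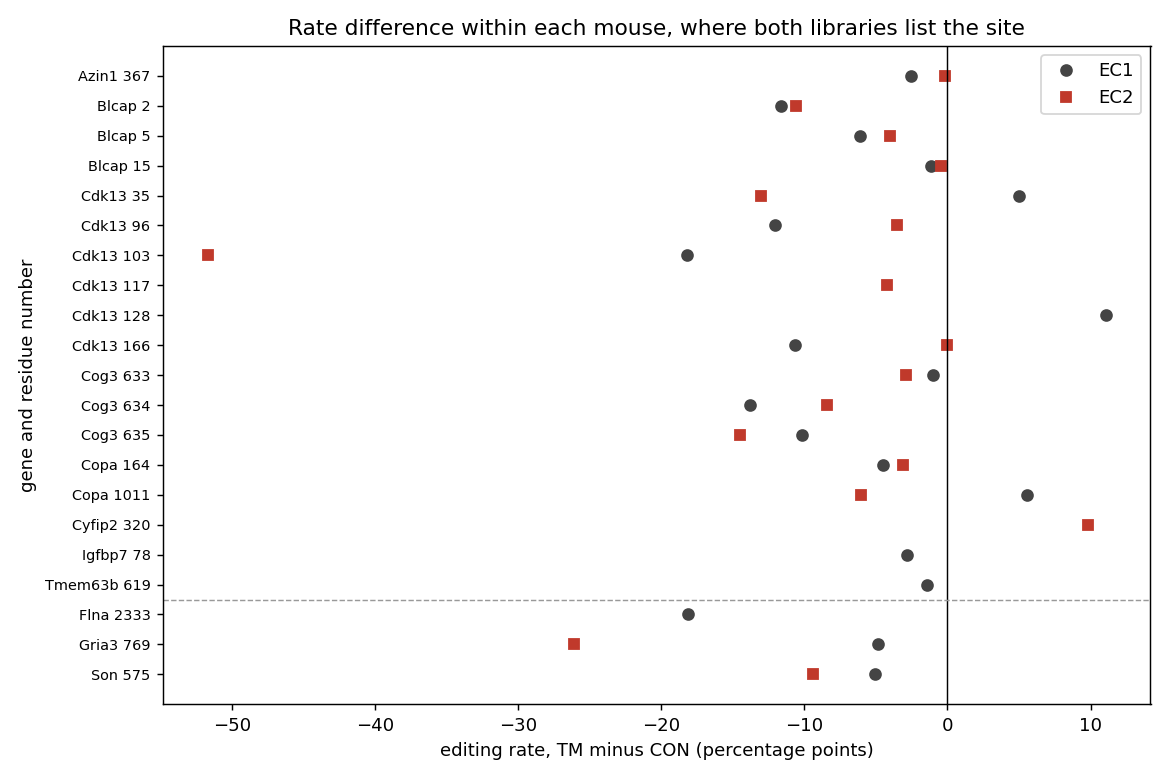
Editing rate in TM minus CON in percentage points (x axis) at each coding site, named by gene and residue number (y axis), within EC1 (circles) and EC2 (squares), where both libraries of the mouse list the site; the 3 sites under the dashed line belong to other recoded genes. Blcap 2 lies at -11.6 and -10.6, Cdk13 103 at -18.2 and -51.7, and Igfbp7 78 and Tmem63b 619 have a value in EC1 only.

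Other genes with known recoding sites were read in the same way. Of Flna, Gria2, Gria3, Gria4, Grik1, Grik2, Htr2c, Kcna1, Cacna1d, Gabra3, Nova1, Neil1, Cadps, Son, Mex3b and Unc80, 3 of 16 had a protein-changing site that passed in at least 2 libraries, and each of the 3 was called lower in TM in 1 mouse. Over all genes, 0.898% of the tested sites were called lower in EC1 and 2.37% in EC2. Those shares include sites from 5 reads up, while these 3 sites had 52 to 1115 reads where listed, so depth is not alike. Q2333R of Flna, the gene of the actin crosslinker filamin A, was altered in 510 of 845 reads in EC1 CON and 376 of 890 in EC1 TM, or 60.4% and 42.2% (adjusted p = 9.31e-11, Fisher's exact test), and in 569 of 1115 in EC2 CON, with EC2 TM unlisted. R769G of Gria3, a glutamate receptor subunit, was altered in 76 of 100, 37 of 52, 73 of 100 and 38 of 81 reads (adjusted p = 1 in EC1 and 0.0219 in EC2). R575G of Son, a splicing cofactor, was altered in 108 of 557, 92 of 641, 119 of 509 and 121 of 864 reads (adjusted p = 0.561 and 0.00135). At similar depth the Flna difference of -18.1 points in EC1 was larger than the -4.53 points of Copa I164V and the -2.84 points of Igfbp7 R78G in the same mouse, and the differences between these sites were not tested. For I164V the limit given above for Copa holds here too, since reads of RNA alone cannot tell an inherited base from an edited one.

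The level of the transcripts was read from depth and from gene counts. Depth at the exonic and UTR sites that both libraries of a mouse list, which needs no scaling by length, was highest for Igfbp7 (medians of 1507 and 936 reads in EC1 CON and TM, 2125 and 1637 in EC2), then Copa (679.5 and 602.5, 827 and 974). Tmem63b, Blcap and Azin1 followed at 180 to 281 reads in EC1 CON and 227 to 307 in EC2 CON, and Cog3 and Cdk13 came last at 71 and 63 in EC1 CON, with Cyfip2 at 12 reads at its 1 such site in EC2 CON. These sites carry altered reads in both libraries, and a deeper base is likelier to have them. The medians may thus lie above the usual depth of a transcript, and the order of the genes has this limit. Scaled to the library totals, the log2 ratio of TM to CON was above 0 in both mice for Blcap (0.88 and 0.57), Cdk13 (0.61 and 0.66) and Azin1 (0.47 and 0.58, 1 site). It was below 0 in both for Igfbp7 (-0.66 and -0.91), Tmem63b (-0.61 and -0.70), Cog3 (-0.51 and -0.32) and Copa (-0.12 and -0.31). Over all genes with 5 or more such sites, the median was -0.0079 in EC1 and -0.12 in EC2, and the lower and upper quartiles were -0.33 and 0.31 in EC1 and -0.46 and 0.22 in EC2. Blcap, Cdk13 and Azin1 lay above the upper quartile in both mice and Igfbp7 and Tmem63b below the lower one, with 1 to 12 sites per gene and no test. Azin1 (1 site), Tmem63b (2 sites in EC1 and 1 in EC2) and, in EC1, Blcap (4 sites) had fewer than the 5 sites required for the quartiles. For them the comparison is not a like one. In bulk RNA, fewer cells that express a gene and less RNA per cell cannot be told apart.

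**Figure D4:**
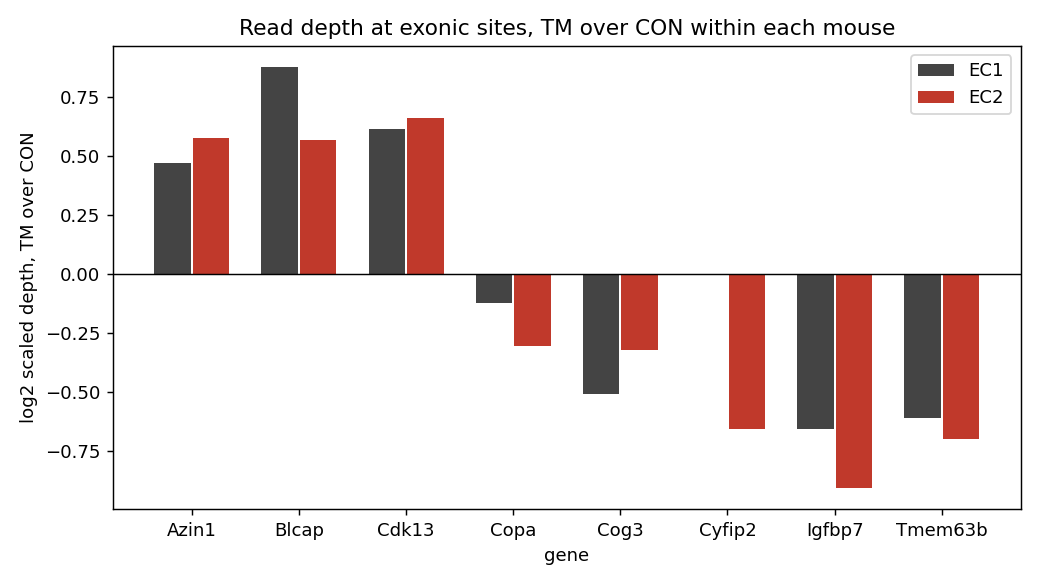
Log2 ratio of scaled read depth, TM over CON (y axis), at the exonic and UTR sites of each gene (x axis) listed in both libraries of EC1 (grey) and EC2 (red); bars are medians over 1 to 12 sites, with no error bar, and Cyfip2 had no such site in EC1. The 3 genes on the left are above 0 and Copa, Cog3, Igfbp7 and Tmem63b below 0 in both mice.

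Gene counts were far below these depths, and 92.8% to 93.9% of a library's total was placed on no feature. The counts thus rest on a small share of the reads and may not follow the level of a transcript. For Igfbp7 the whole gene had 109, 79, 103 and 127 counts, fewer than the reads over its single bases, and for Blcap 1, 5, 5 and 11. The counts for Copa were 930, 1157, 1120 and 2002, but its transcript shares bases with exons of Ncstn on the opposite strand, as that of Igfbp7 does with Polr2b. HTSeq's default setting counts reads on the strand of the gene, and the strand of these reads was not tested. Azin1 (8, 13, 8 and 12), Cyfip2 (4, 1, 3 and 4), Cog3 (6, 0, 11 and 10) and Blcap were too low for edgeR's filter. Of the 4 genes tested none was called, where edgeR called 4.39% of all tested genes higher and 3.35% lower. One had an unadjusted p under 0.05, and DESeq2 called none. That gene was Cdk13, with 67, 105, 54 and 141 counts, and its log2 fold change was 0.68 with a standard error of 0.33 (adjusted p = 0.236). The log2 fold change was 0.24 (0.28, adjusted p = 0.708) for Copa and -0.41 (0.31, adjusted p = 0.519) for Igfbp7. For Tmem63b, with 18, 21, 22 and 27 counts, it was -0.082 (0.48, adjusted p = 0.954) and changed sign without EC2 CON or without EC2 TM.

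The library totals over all rows of the count tables were 131796753 to 207323870, highest in EC2 TM, of which 0.823% to 0.858% fell on genes. The limit that 0 counts allow is 3 counts, which is 1.69 to 2.74 CPM (counts scaled to the total on genes). The 11 endothelial markers summed to 1073 to 1374 CPM and the 7 of fibroblasts and smooth muscle to 478 to 562 (mostly Tagln). The 6 of leukocytes summed to 31.9 to 51.1 and the 5 of epithelium to 1.64 to 6.18. Most leukocyte counts were those of Cd79a (35, 23, 29 and 31) and Cd68 (19, 17, 10 and 39), with Cd3e at 0 in each library and Ptprc at 0 or 1 counts. Among the endothelial markers tested, edgeR called Cldn5 alone, lower in TM (log2 fold change -1.52, adjusted p = 0.0176), where it called 3.35% of all tested genes lower. Vwf had 2, 0, 2 and 0 counts and was not tested. The ranges of the summed CPM in CON and TM overlapped for each of the 4 lists. All these marker values rest on the same small share of the reads and may not follow the level of a transcript or the make-up of the cultures.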

How the data were processed

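The authors depleted ribosomal RNA (KAPA RNA HyperPrep with RiboErase), used Trimmomatic 0.38 for trimming, STAR 2.6.1a for alignment to mm10 and HTSeq 0.11.2 for counting, per the labels, and deposited raw counts per gene. They called variants per library with BCFtools, kept A-to-G changes on the gene's strand, and deposited reads per base with the editing rate as a fraction, which they give as 0 for a site that is unlisted in a library. The rates here were recomputed from the deposited reads. Columns of the site table were given to libraries by their names and through the study's labelled site table, where the values of all 1998 sites held were equal in each library.

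The 8 genes and all lists were chosen with earlier results of these data known. A gene of the list of other recoded genes is not reported here. Codons came from 1 GENCODE vM21 transcript per gene (principal isoform, longest coding sequence). Every coding site that passed in at least 1 library is described, and non-coding ones where Fisher's exact test called them or where they differed by 0.05 the same way in both mice. The Copa 5′ UTR site was chosen after its values were seen. The quasi-likelihood test of edgeR 4.0.16, after filterByExpr and TMM scaling and with no covariate, was the test of gene counts, and DESeq2 1.42.0, a replicate block for the mouse, other filters and left-out libraries were alternatives. Site tests used sites with at least 5 reads in both libraries that passed in 1 of them, and Benjamini-Hochberg adjustment at 0.05. Both cultures of a pair came from the same mouse, and their deviations from the group means correlated with r = 0.163 over 7899 genes. The procedures were tested on simulated data. Wilson intervals and limits for counts of 0 cover counting error only, since reads carried no molecular identifiers. Scipy 1.17.1 and R 4.3.3 were used.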

Additional observations from a re-analysis of the deposited data

How the results depend on the processing

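Gene counts gave 0 called genes among the 8 under each alternative run, the replicate block in edgeR and DESeq2 included, while over all genes 612 were called and 1184 with the block, 362 with DESeq2 and 401 with DESeq2 and the block. Where a library is left out, its group's other library is assumed to vary like the other group. The log2 fold change of Tmem63b ran from -0.25 to 0.087 with 1 library left out, and reversed without EC2 CON (0.087) and without EC2 TM (0.061). Fisher's exact test called 2 coding sites lower in at least 1 mouse. The exact Mantel-Haenszel test, on reads kept apart by mouse, called 4. At a depth of at least 20, where fewer sites enter the adjustment, Fisher's exact test called 4 (Blcap Q5R, adjusted p = 0.0417, and Cog3 I635V, 0.0470, both in EC2, were then called). With 1 mouse left out, it called 1 to 2: 1 without EC2. The mean rate difference reversed from the deposited 0 of unlisted libraries to the libraries that list the site for Cdk13 K117R (7.40 to -4.24 points), Igfbp7 R78G (33.6 to -2.84) and Tmem63b Q619R (2.97 to -1.40), since the depth of an unlisted site is unknown. With 1 mouse left out it was -13.0 to 4.98 points for Cdk13 Q35R and -6.01 to 5.54 for the synonymous Copa site, and reversed without EC2 in both.

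Passing sites numbered 81, and 41 at a depth of at least 20, with 16 in coding sequence and counts within 1.5 times of these under the other limits. The 12 sites with CON above TM in both mice became 7 at a rate difference of 0.10, 7 at a depth of 10, 6 at a depth of 20 and 7 with 5 altered reads. With 1 mouse left out (added after seeing the data) they were 27 to 30, of which 6 to 7 were coding. The 2 sites with TM above CON became 0 at a depth of 10, 0 at a depth of 20 and 0 with 5 altered reads, and 17 to 22 with 1 mouse left out, of which 2 to 4 were coding. Of sites with a rate of 20% to 95% in a library, 54.6% to 61.3% were unlisted in the other library of the mouse at 5 to under 20 reads, and 2.52% to 13.6% at 20 or more.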
